A study of Columba livia and Gallus gallus with 96 samples.

Results

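The libraries described here are the forelimb and hindlimb buds of grouse pigeon embryos at Hamburger-Hamilton stage 25 (HH25), 4 libraries per limb and 8 of the 96 in the series. They were taken by their labels alone: species pigeon (Columba livia), foot phenotype grouse, limb type FL (forelimb, the wing bud) or HL (hindlimb, the leg bud), and stage HH25, which the labels place at embryonic day 4.5. The series crosses 3 pigeon foot phenotypes and a chicken group with both limbs and 3 stages. Grouse and muff are its feather-footed pigeons and scale its scale-footed pigeons. For contrast, the text also uses 4 forelimb and 4 hindlimb libraries each of scale pigeons at HH25, muff pigeons at HH25, grouse pigeons at HH21 (embryonic day 3.5) and grouse pigeons at HH29 (embryonic day 6). The labels give no treatment, transgene, breed, genotype or sex for these groups, nor how many embryos went into a library. Wing and leg buds were collected in pairs, so libraries that share a replicate number were compared within their pair. The p-values of these paired fits measure how the limb difference varies over the pairs of libraries. Whether that is a spread between single embryos is not known.

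A vertebrate limb bud is mesenchyme from the lateral plate covered by ectoderm, into which muscle precursors, blood vessels and nerves migrate. The forelimb bud is marked by the transcription factor TBX5, and the hindlimb bud by TBX4, PITX1 and, early on, ISL1. HOX genes lie in clusters and are used in nested domains along the body and along the limb, Sonic hedgehog (SHH) comes from the posterior margin of the bud, and fibroblast growth factors (FGFs) come from the ridge at its tip. In domestic pigeons, feathered feet have been mapped to regulatory alleles at PITX1 and TBX5, and scaled feet are the ancestral state.

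Total counts ranged from 10438537 to 14067374 per library, and 16085 to 16306 of 21379 features had at least 1 count. The 10 most abundant features took 5.01% to 5.75% of a library. No 2 libraries of a limb were copies: over the 12 replicate pairs the chi-square of the counts per degree of freedom was at least 3.79. The first principal component of log2 CPM (counts scaled to library size), with 34.1% of the variance, separated replicates 1 and 2 from replicates 3 and 4 in both limbs, and the second, with 27.4%, separated the limbs. The labels name no batch. The mesenchymal markers PRRX1, PRRX2, MSX1 and TBX3 were present in every library, at 180 to 265, 48.9 to 82.6, 51 to 78.3 and 102 to 196 CPM. They were not all level between the limbs. PRRX2 was at 48.9 to 64.5 CPM in forelimbs and 71.9 to 82.6 CPM in hindlimbs. In the limb test described next PRRX2 was higher in hindlimb (log2 fold change 0.38), PRRX1 (−0.1) and TBX3 (−0.67) were lower, and MSX1 was not called. No feature carried the name TWIST1. Genes are given by the names in the authors' deposited table, and for the main genes the feature that carries the counts follows the name.

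Of 13205 features tested, 1427 (10.8%) were called between the limbs at a Benjamini-Hochberg adjusted p below 0.05 in edgeR's quasi-likelihood test with the pair as a block. In hindlimb 635 (4.81%) were higher and 792 (6%) lower, and the median log2 fold change of all tested features was 0. Most differences were small: the median absolute log2 fold change of the called features was 0.33, and 1055 of them (73.9%) differed by less than 1.5-fold. A difference of at least 2-fold was found for 148 features, 59 higher and 89 lower in hindlimb, and one of at least 4-fold for 12 higher and 23 lower. The direction was the same in all 4 pairs for 1358 of the 1427, which a test on the same pairs favours. Of all tested features 724 (5.48%) had forelimb and hindlimb values that did not overlap. The block carries much of this count: without it 176 features were called (80 higher, 96 lower) and all of them were among the 1427. DESeq2 with the same block called 562, also all among the 1427.

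The limb-type genes were among the features called with a difference of at least 4-fold. TBX5 (XM_005500161.2,XM_005500160.2,XM_005500158.2) stood at 240, 259, 343 and 296 CPM in forelimb replicates 1 to 4 and at 0.775, 0.886, 2.04 and 0.781 CPM in the paired hindlimbs. No hindlimb came near a forelimb, and the log2 fold change was −7.95 (SE 0.08, adjusted p 1.19e-20). The SE, here and below, is derived from the test statistic and can be smaller than counting error where 1 limb has few counts. The 3 smaller TBX5 features held 209, 103 and 314 counts over the 4 forelimb libraries and 0, 0 and 1 over the hindlimbs. For the 2 at 0, forelimb was at least 72.1-fold and at least 35.5-fold higher against a floor of 3 counts over the 4 hindlimb libraries, and for the third the ratio was 325 (95% counting interval 57.9 to 12900).

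PITX1 (XM_005503471.1), a homeodomain factor of the leg bud, ran the other way, with 3.98, 4.85, 4.48 and 3.86 CPM in forelimbs and 214, 227, 256 and 233 CPM in hindlimbs. Its log2 fold change was 5.75 (SE 0.06, adjusted p 1.19e-20). TBX4 (XM_005511931.1), the hindlimb relative of TBX5, was at 3.22, 3.26, 2.1 and 5.01 CPM in forelimbs and at 137, 148, 182 and 179 CPM in hindlimbs, or 5.53 in log2 fold change (SE 0.09, adjusted p 2.17e-17). Neither gene overlapped between the limbs. ISL1 (XM_005500874.2), which acts upstream of TBX4 at the start of leg outgrowth in mouse, stood at 2.12, 1.75, 0.859 and 3.15 CPM in forelimbs and 11.9, 11.8, 7.21 and 20.2 CPM in hindlimbs. Its libraries did not overlap either, and its log2 fold change was 2.69 (SE 0.13, adjusted p 3.29e-10). Pair 4 had the highest and pair 3 the lowest ISL1 level in both limbs.

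**Figure D1:**
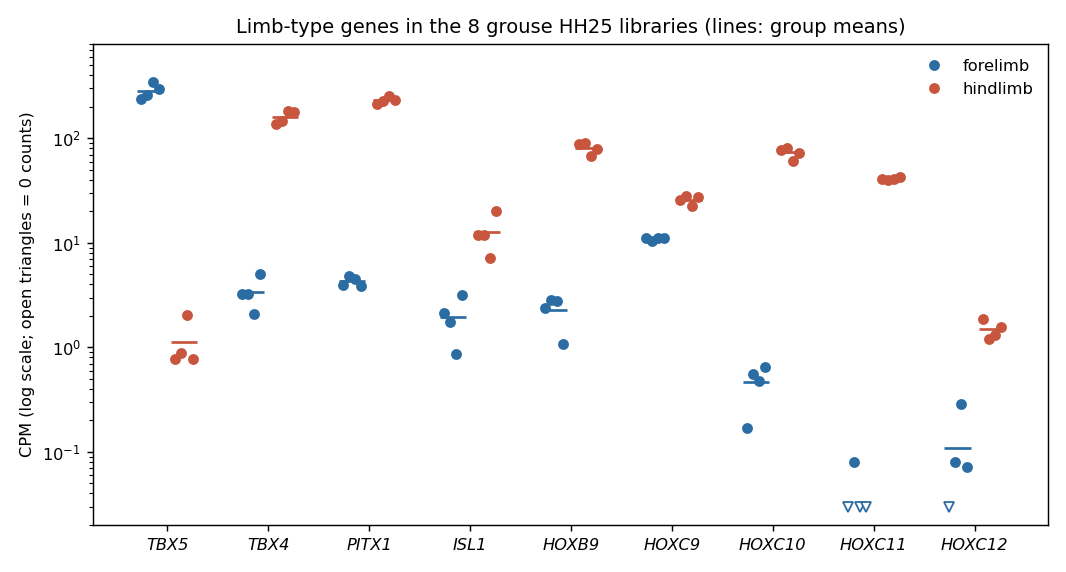
CPM on a log axis for 9 genes in the 4 forelimb (blue) and 4 hindlimb (red) libraries of grouse HH25; points are libraries, short lines are group means and open triangles mark libraries with 0 counts. TBX5 is near 300 CPM in forelimb and near 1 CPM in hindlimb, and the 8 other genes are higher in every hindlimb library than in any forelimb library.

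HOX genes were called in both directions, most of them lower in hindlimb. Of 52 listed HOX names 30 carried a feature and 28 were tested. Of these, 5 were higher and 19 lower in hindlimb, against the 10.8% of all features called, and the median log2 fold change of the 28 was −1.09 against 0 for all features. The 5 higher genes were HOXB9 and a run of neighbouring paralog groups in the C cluster, HOXC9 to HOXC12. HOXC10 (XM_005514731.1) had 0.169, 0.557, 0.477 and 0.644 CPM in forelimbs and 78.1, 81.3, 61 and 72.9 CPM in hindlimbs, or 7.26 in log2 fold change (SE 0.13, adjusted p 3.15e-17). HOXC11 (XM_005514730.1) had 1 count in the 4 forelimbs together and 2070 in the hindlimbs, where it stood at 40.7, 39.6, 40.7 and 43 CPM. That is a ratio of 2000 with a 95% counting interval of 359 to 79000. The HOXC9 difference was smaller, 11 ± 0.312 CPM (SD, n = 4) in forelimb against 25.8 ± 2.31 in hindlimb, and HOXC12 was scarce, with 5 counts in forelimb and 75 in hindlimb. HOXB9 (XM_005508221.1) stood at 2.37, 2.86, 2.77 and 1.07 CPM in forelimbs and 88.7, 90.2, 67.2 and 78.8 CPM in hindlimbs, a log2 fold change of 5.2 (SE 0.11).

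In the D cluster 6 of the 7 tested genes were lower in hindlimb. Their log2 fold changes were −2.87 for HOXD3, −1.89 for HOXD4, −3.41 for HOXD8, −2.8 for HOXD9, −3.18 for HOXD10 and −1.81 for HOXD11. HOXD10 (XM_005514206.1) stood at 74.4, 75.7, 90.2 and 83.4 CPM in forelimbs and 9.07, 8.86, 9.25 and 8.34 CPM in hindlimbs. HOXD11 stood at 80.2, 80.1, 105 and 93.8 CPM against 21.5, 23.1, 30.8 and 27.1 CPM. HOXD13, the last gene of the cluster and the one used most distally, did not follow them. It had 85.3 ± 8.62 CPM in forelimb and 81.6 ± 6.17 in hindlimb, and its log2 fold change of −0.06 was not called (SE 0.05, adjusted p 0.507). HOXD12 had no feature under that name.

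The A cluster differed less. HOXA2 (−0.7), HOXA7 (−1.04), HOXA4 (−0.25), HOXA5 (−0.32) and HOXA6 (−0.19) were lower in hindlimb. HOXA3 (−0.09, adjusted p 0.176) and HOXA9 (0.07, adjusted p 0.514) were not called, nor was HOXC13 (−0.29, adjusted p 0.498). No feature carried the names HOXA10, HOXA11 or HOXA13, and HOXB1 (13 counts in forelimb, 9 in hindlimb) and HOXB8 (5 and 8) were not tested. The kit is stranded, but the strand setting of the counting is not given in the sources used here, so reads of overlapping or antisense transcripts in these dense clusters may not have been told apart.

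The anterior genes of the B and C clusters were lower in hindlimb too, but unevenly across the pairs. Log2 fold changes were −1.57 for HOXB2, −1.16 for HOXB3, −1.15 for HOXB4, −2.11 for HOXB5, −2.3 for HOXC4, −2.36 for HOXC5 and −1.33 for HOXC8. HOXB5 stood at 9.83, 15.1, 0.763 and 3.08 CPM in forelimbs 1 to 4 and at 2.71, 1.69, 0.656 and 1.3 CPM in hindlimbs, so forelimb 3 lay inside the hindlimb range. HOXC4 had the same order over the forelimbs, 9.07, 12.4, 1.43 and 3.72 CPM. With replicates 1 and 2 alone the HOXB5 log2 fold change was −2.48 (adjusted p 1.48e-16), and with 3 and 4 alone it was −0.94 (adjusted p 0.157). Without replicate 2 HOXB3 was not called (−0.44, adjusted p 0.501), and in the fit without the block HOXB2 to HOXB5, HOXC4 and HOXC5 were not called. Over all HOX genes 11 were lower without the block and in DESeq2, and 5 were higher in both. Calls over all features, 1427 of 13205 in the main fit, numbered 176 without the block and 562 in DESeq2.

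**Figure D2:**
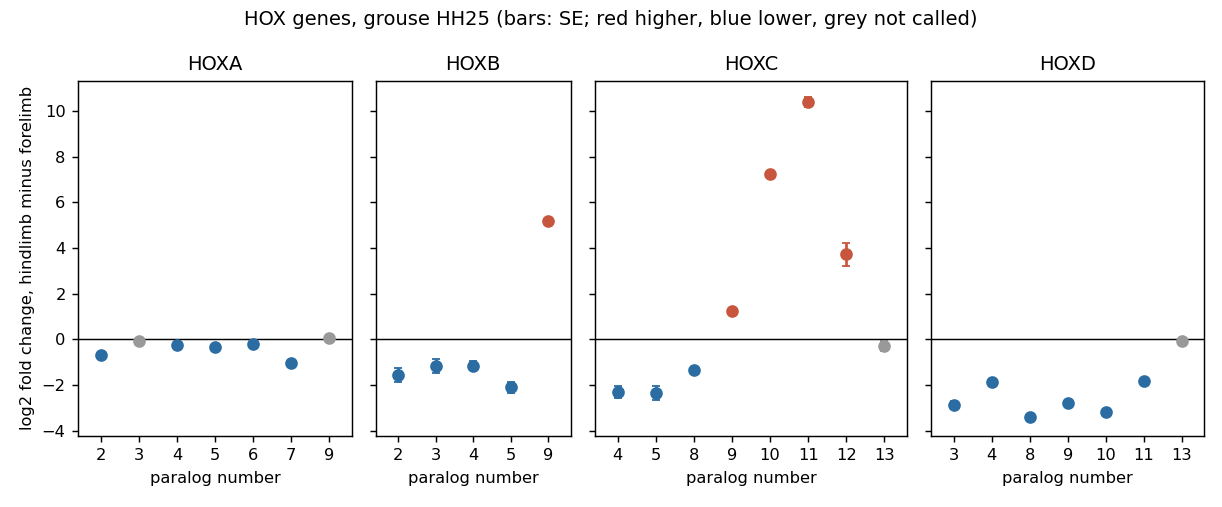
Log2 fold change of hindlimb minus forelimb (y axis) for tested HOX genes, ordered by paralog number within each cluster; bars are SE, red is higher, blue lower and grey not called. HOXB9 and HOXC9 to HOXC12 lie above 0 and HOXD3 to HOXD11 below 0, while HOXD13 lies at −0.06. The HOXC11 point is a fitted value resting on 1 forelimb count, and its bar is shorter than counting error.

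Beyond the limb-type and HOX genes, the largest rises in hindlimb among named genes with 1 direction in all pairs were those of genes with few counts. CNTN5, a neuronal adhesion molecule, averaged 0.384 ± 0.261 CPM in forelimb and 2.4 ± 1.1 in hindlimb, or 2.64 in log2 fold change (SE 0.29, adjusted p 5.59e-06). NDP, which encodes the Frizzled ligand norrin, was at 0.932, 1.51, 0.859 and 0.93 CPM in forelimbs and 4.11, 5.64, 4.3 and 4.17 CPM in hindlimbs, with no overlap and a log2 fold change of 2.09 (SE 0.19). KIAA1024 (1.98), TAGLN3 (1.86), the sodium-proton exchanger SLC9A3 (1.85) and PDZK1IP1 (1.8) completed the 15 largest, together with GATA5 (2.54) and WT1 (2.01), described with the trunk markers. SLC9A3 rested on 14 and 54 counts and was not called without replicate 3 (adjusted p 0.06).

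The largest falls included genes of hormone signalling, transport and mineralization. DIO3 (XM_005515998.2), the deiodinase that inactivates thyroid hormone, had 26.6, 42.7, 27.2 and 29.2 CPM in forelimbs and 1.94, 3.22, 4.23 and 2.69 CPM in hindlimbs, or −3.36 in log2 fold change (SE 0.13, adjusted p 7.55e-12). PHEX, an endopeptidase of mineralizing tissue, had 6.61, 8.11, 5.15 and 5.94 CPM against 0.62, 0.725, 0.437 and 0.434 CPM, a log2 fold change of −3.51 (SE 0.2). Neither overlapped between limbs. Next in order were the tight-junction gene CLDN11 (−3.23), KCNMB4, a subunit of a calcium-activated potassium channel (−3.12), the vesicle-traffic gene SYTL5 (−3.01), the vasopressin receptor AVPR1A (−2.8), the adrenergic receptor ADRA2A (−2.59) and the steroid reductase SRD5A2 (−2.54). ALX1, a paired-type homeodomain factor, was at 21.9, 30, 13.6 and 14.2 CPM in forelimbs and 6.67, 4.27, 1.31 and 2.34 CPM in hindlimbs (log2 fold change −2.46, SE 0.17). SRD5A2 had 21.5 and 21.4 CPM in forelimbs 1 and 2 but 5.34 and 8.15 CPM in forelimbs 3 and 4, all above the hindlimb values of 1.68 to 3.41 CPM.

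Most of the called patterning genes were lower in hindlimb, by small amounts. Of 28 tested anterior and proximal limb factors, 3 were higher and 15 lower, beside 4.81% and 6% of all features. Their median log2 fold change was −0.25. TSHZ1 was lower by a log2 fold change of −0.93 (84.8 ± 4.12 CPM in forelimb, 44.6 ± 4.68 in hindlimb) and PAX1 by −0.91, though pair 3 ran the other way for PAX1. TBX18 (327, 312, 316 and 312 CPM in forelimbs; 182, 220, 189 and 200 CPM in hindlimbs) and TBX3 (152, 175, 167 and 196 CPM; 102, 102, 112 and 115 CPM) did not overlap between the limbs. PAX9 went against its group and its relative PAX1, with 3.9, 5.49, 5.34 and 4.65 CPM in forelimbs and 10.9, 11.4, 13.9 and 14.7 CPM in hindlimbs (log2 fold change 1.39, SE 0.12, adjusted p 2.89e-07). MEIS1 and IRX1 were the other 2 called higher, by 0.3 and 0.69. Without the block 1 of the 28 was higher and 5 were lower, and of all features 80 were higher and 96 lower.

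Of 16 hedgehog and posterior genes 9 were lower and 1 higher, beside 6% and 4.81% of all features, with a median of −0.15. SHH (XM_013372186.1) was scarce, with 6.36, 3.34, 1.24 and 3.72 CPM in forelimbs and 1.86, 1.53, 0.291 and 1.56 CPM in hindlimbs. It was lower in the hindlimb of every pair, while forelimb 3 fell within the hindlimb range, and its log2 fold change was −1.47 (SE 0.21, adjusted p 8.77e-05). The SHH receptor and target PTCH1 (−0.39), its antagonist HHIP (−0.59) and the co-receptor BOC (−0.58) were lower as well. The target GLI1 was not called (25.3 ± 3.93 CPM in forelimb, 23.4 ± 3.38 in hindlimb, log2 fold change −0.11, adjusted p 0.328). OSR1 was the 1 higher member, at 20.3 to 25.5 CPM in forelimbs and 37.1 to 55.2 CPM in hindlimbs (1.01, SE 0.06). The count of lower genes was 4 without replicate 4 and in DESeq2 and 1 without the block, where SHH was not called (adjusted p 0.416). Over all features the lower calls, 792 in the main fit, numbered 508, 336 and 96 in these fits.

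Of 23 apical ridge and FGF genes 9 were lower and 1 higher, beside 6% and 4.81% of all features, with a median of −0.09. The ridge ligand FGF8 itself was not called (7.22 ± 1.39 CPM in forelimb, 7.62 ± 0.864 in hindlimb, adjusted p 0.753), nor was FGF18 (adjusted p 0.985). The feedback phosphatase DUSP6 was lower in all pairs, with 159 to 210 CPM in forelimbs and 111 to 135 CPM in hindlimbs (−0.6, SE 0.03). FGF12 (−1.04), DLX6 (−0.89) and DLX3 (−0.66) had the larger log2 fold changes, and FGF13 was higher (0.39). FGF12 and FGF13 are listed as members of the FGF family, not as ridge ligands. No feature carried the name FGF10. The count of lower genes was 6 without replicate 1, 2 or 4, 3 in DESeq2 and 2 without the block. Over all features the lower calls, 792 in the main fit, numbered 590, 590 and 508 without replicate 1, 2 or 4. They numbered 336 in DESeq2 and 96 without the block.

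Other signalling lists were split or near the background, the 10.8% of all features called. The share called was 12.5% for BMP, 33.3% for WNT, 30% for retinoic acid and 75% for the short thyroid hormone list. For Notch it was 15.4%, for IGF 30.8% and for axon guidance 29.7%. Without the block, where 176 of all 13205 features were called, no Notch, IGF or axon guidance gene was called. In that fit BMP had 1 higher, WNT 1 lower, retinoic acid 1 higher and 2 lower, and thyroid hormone 1 lower. Of 24 BMP genes 1 was higher and 2 lower: BMP5 (0.97), MSX2 (−0.53) and the antagonist GREM1 (−0.33), while BMP2 and BMP4 were not called. Of 27 WNT genes 4 were higher and 5 lower, among them WNT7A (−0.49), WNT4 (−0.47), WNT11 (−0.4) and the target AXIN2 (−0.39), with SFRP2 (0.35) on the other side. Of 10 retinoic acid genes the binding protein CRABP1 was lower, with 591 to 701 CPM in forelimbs and 338 to 416 CPM in hindlimbs (−0.79, SE 0.03), DHRS3 was lower (−0.43) and RDH10, which makes retinaldehyde, was higher (0.61). In the thyroid hormone list of 4, DIO3 was lower and the activating deiodinase DIO2 (0.49) and the transporter SLC16A10 (0.35) were higher. Notch (2 higher of 13: NOTCH1 at 0.22 and JAG1 at 0.2), IGF (3 higher and 1 lower of 13: IGF2 at 1.07, IGFBP4 at 0.48, IGFBP3 at 0.38 and IGFBP2 at −0.2) and axon guidance (6 higher and 5 lower of 37, led by NTN4 at −0.59, NRP2 at 0.43, SLIT2 at 0.39 and SEMA6A at −0.36) had called members in 1 or both directions.

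Called matrix genes were mostly higher in hindlimb. Of 41 collagen and matrix genes 20 were higher and 2 lower, beside 4.81% and 6% of all features, and 19 were not called. Their median log2 fold change was 0.13. COL12A1, a fibril-associated collagen, stood at 102, 89.4, 117 and 87.1 CPM in forelimbs and 177, 194, 258 and 175 CPM in hindlimbs (1.02, SE 0.05, adjusted p 6.39e-11). The proteoglycan gene GPC3 did not overlap either, with 60.3 to 72.5 CPM in forelimbs and 117 to 154 CPM in hindlimbs (1.01, SE 0.04), and LUM stood at 353 to 523 CPM and 641 to 746 CPM (0.72, SE 0.04). TNC (0.81), GPC6 (0.79) and COL3A1 (0.76) followed. COL5A2 was lower, 944 ± 49.1 CPM in forelimb and 716 ± 76.5 in hindlimb (−0.4), as was GPC4 (−0.26). Of 11 tendon and joint genes 5 were higher, TNC, SULF1, COL14A1, ERG and DCN, and THBS4 was lower. The tendon and joint count was 2 higher without replicate 3 or 4 and 1 higher in DESeq2, beside 517, 370 and 226 higher of all features. For matrix genes, replicates 1 and 2 alone gave 11 higher and 5 lower with a median of 0.07, replicates 3 and 4 alone 20 and 2, and the fit without the block 6 and 1. Over all features the same fits gave 329 higher and 508 lower, 354 and 470, and 80 and 96.

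Cartilage genes were not displaced as a group: 3 of 18 were higher and 3 lower, beside 4.81% and 6% of all features. SOX9, the regulator of chondrocyte fate, was lower (73, 72.1, 107 and 86.1 CPM in forelimbs; 44.4, 60.1, 86.6 and 49 CPM in hindlimbs; −0.51, SE 0.07), as were RUNX2 (−1.15, against its direction in pair 3) and MATN3 (−0.9). SOX9 overlapped between the limbs, with hindlimb 3 at 86.6 CPM. LECT1 (0.84), NKX3-2 (0.72) and COL11A1 (0.21) were higher, and the cartilage collagen COL2A1 was not called (338 ± 97 CPM and 324 ± 130, adjusted p 0.409). Without the block 1 of the 18 was higher and 0 were lower, and in DESeq2 1 was higher and 1 lower. Over all features these fits gave 80 higher and 96 lower, and 226 and 336.

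**Figure D3:**
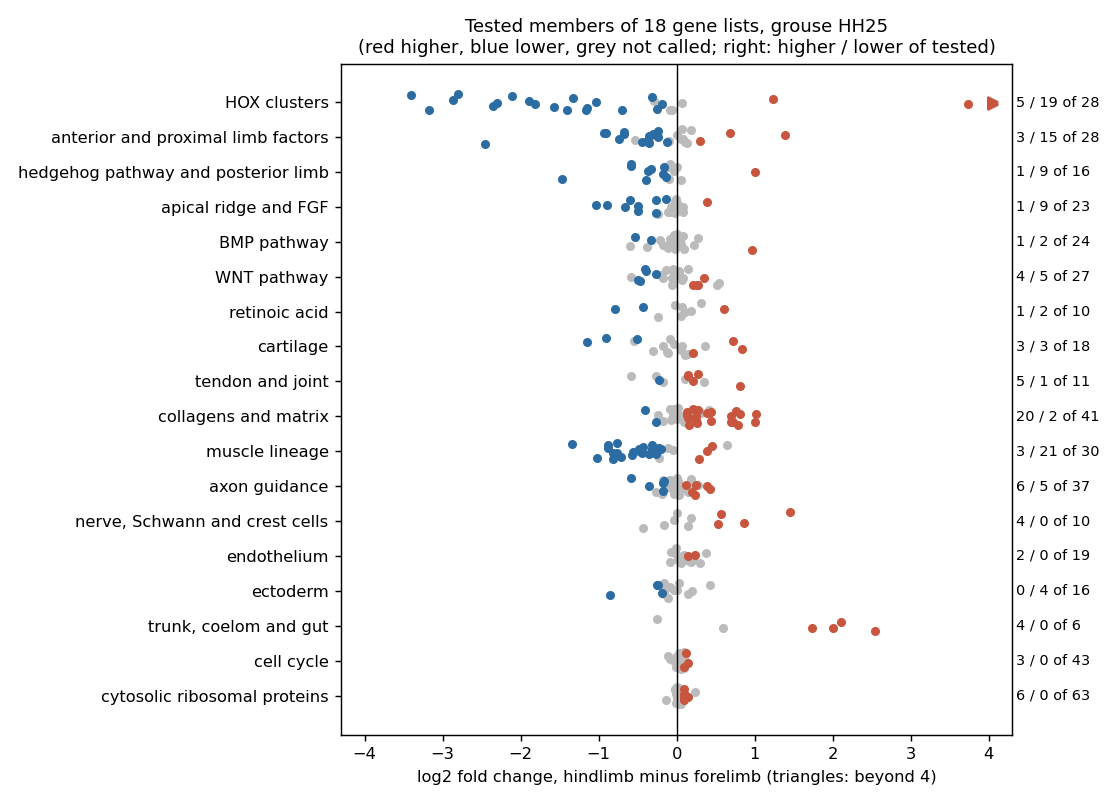
Each point is a tested member of a gene list at its log2 fold change of hindlimb minus forelimb (x axis), red if called higher, blue if called lower and grey if not called; triangles lie beyond 4, and the counts at the right are higher / lower of tested. The HOX, patterning and muscle lists lean to the left of 0 and the collagen and matrix list to the right, while cell cycle and ribosomal genes sit near 0.

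Muscle genes were lower in the hindlimb bud. Of 30 tested genes of the muscle lineage 21 were lower and 3 higher, beside 6% and 4.81% of all features. Their median log2 fold change was −0.39. ACTC1, the actin of early striated muscle, had 188, 272, 675 and 371 CPM in forelimbs and 87, 158, 438 and 179 CPM in hindlimbs, or −0.88 in log2 fold change (SE 0.06, adjusted p 9.55e-09). TNNC1 had 8.98, 13.2, 31 and 14.4 CPM in forelimbs and 2.17, 4.67, 16.3 and 4.69 CPM in hindlimbs (−1.34, SE 0.13). In both, every hindlimb lay below its own forelimb, but hindlimb 3 lay above every forelimb except its own. MYL1 (−1.02) and TNNT2 (−0.88) were next, and the differentiation factor MYOG (−0.48) and MYOD1 (−0.31) were lower too. The precursor markers PAX3 (−0.05, adjusted p 0.825), PAX7 (−0.22, adjusted p 0.622) and LBX1 (−0.26, adjusted p 0.0661) were not called, and MYF5 (0.39), EYA1 (0.45) and MET (0.29), genes of early or migrating precursors, were higher. Summed over the list, CPM was 922, 1060, 1940 and 1230 in forelimbs and 610, 820, 1440 and 788 in hindlimbs.

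The muscle calls depend on the pairing. Without the block none of the 30 was called. DESeq2 called 15 lower and none higher, so that the higher calls of MYF5, EYA1 and MET were lost there. With replicates 1 and 2 alone 16 were lower and 1 higher, and with 3 and 4 alone 18 and 1. Over all features 176 were called without the block, and DESeq2 called 336 lower and 226 higher. Replicates 1 and 2 alone gave 508 lower and 329 higher of all features, and 3 and 4 alone 470 and 354. In whole buds, fewer cells of a type and less RNA per cell cannot be told apart.

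**Figure D4:**
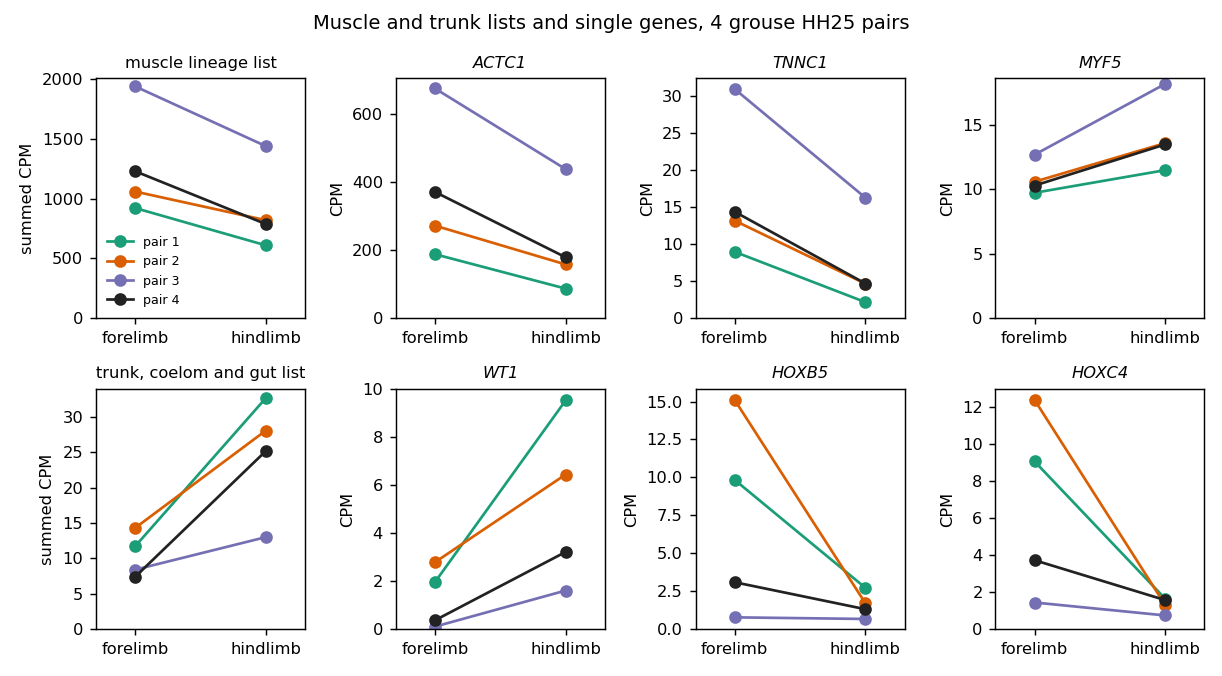
CPM in forelimb and hindlimb (x axis) of each of the 4 pairs, joined by lines, for the summed muscle and trunk lists (y axis: summed CPM) and for 6 genes (y axis: CPM). All 4 lines fall for the muscle list, ACTC1 and TNNC1 and rise for MYF5 and WT1, and pair 3 has the highest muscle level and the lowest WT1, HOXB5 and HOXC4 forelimb levels.

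Some genes listed as markers of tissue next to the limb bud were called between the limbs. Whether the bud itself also makes them was not tested. The trunk, coelom and gut list had 20 features, of which 4 were at 0 in all 8 libraries and 6 passed the filter on low counts, a filter that a gene can pass through its higher limb alone. Its summed level was 7.37 to 14.3 CPM in forelimbs and 13 to 32.7 CPM in hindlimbs, higher in the hindlimb of every pair. Among the tested members GATA5, GATA6, WT1 and SOX2 were higher in hindlimb, by 2.54, 2.11, 2.01 and 1.74. Of all tested features 4.81% were higher. Without the filter 4 were higher and 1 lower of 16, with a median of 0.4 against 1.88 for the 6, and without the block 1 was called. Over all features 789 were higher and 955 lower without the filter, and 176 were called without the block. WT1, made in the coelomic lining, had 1.95, 2.78, 0.0954 and 0.358 CPM in forelimbs and 9.53, 6.44, 1.6 and 3.21 CPM in hindlimbs. GATA5 had 1.95, 3.18, 0.286 and 0 CPM against 12, 10.1, 0.51 and 7.73 CPM, and both overlapped between the limbs. Of the markers taken as defining, GATA4 had 11 counts in forelimb and 2 in hindlimb and CDX2 had no feature. Over the forelimbs, WT1 had the order of HOXB5 and HOXC4, highest in replicate 2 and lowest in replicate 3. The summed list did not have that order, with 11.7, 14.3, 8.39 and 7.37 CPM, and like GATA5 it was lowest in replicate 4. MEIS2, a proximal limb factor, was at 155, 158, 58.8 and 104 CPM. The part of trunk tissue in the HOX and other differences was not tested.

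Nerve and crest markers summed to 69.6 to 88.2 CPM in forelimbs and 91.1 to 96.9 CPM in hindlimbs. Of 10 tested, 4 were higher, GAP43 of growing axons (1.61, 2.54, 2 and 1.93 CPM; 5.66, 5.56, 5.54 and 5.47 CPM; log2 fold change 1.45, SE 0.17), STMN2 (0.87), NEFM (0.57) and TFAP2B (0.53), while the crest marker SOX10 (−0.16) and the neuronal ELAVL4 (−0.43) were not called. The 16 ectoderm genes summed to 454 to 526 and 429 to 488 CPM, overlapping but lower in the hindlimb of every pair. FREM1 (−0.85), CLDN1 (−0.25) and EPCAM (−0.19) were among those called lower, and TP63 (−0.16) was not called. The 19 endothelial genes summed to 586 to 691 and 629 to 728 CPM, overlapping but higher in the hindlimb of every pair. FLT4 (0.23) and ERG (0.15) were called and CDH5, PECAM1 and KDR were not. No leukocyte gene of 10 and no red blood cell gene of 3 was called; the sums were 65.5 to 79.8 and 62.3 to 77.5 CPM for leukocytes, and 259 to 678 and 182 to 883 CPM for red blood cells, whose markers GATA1, ALAS2 and SLC4A1 had no feature. Called members made up 40% of the tested nerve and crest genes, 25% of the ectoderm and 10.5% of the endothelial genes, beside 10.8% of all features. Without the block, where 176 of all features were called, 1 nerve and crest gene was higher and no ectoderm or endothelial gene was called. The part of cell composition in the gene differences was not tested.

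Genes of general metabolism and growth stayed near 0, and the share called was near or below the 10.8% of all features. It was 6.98% for cell cycle, 13.3% for glycolysis, 5.26% for cholesterol synthesis and 9.52% for ribosomal protein genes. Of 43 cell cycle genes 3 were higher, TYMS (0.14), CCNB3 (0.12) and AURKA (0.1). Of 15 glycolysis genes PGK1 (0.11) and GAPDH (0.07) were higher, of 19 cholesterol synthesis genes HSD17B7 (0.17), and of 63 cytosolic ribosomal proteins 6, by 0.14 at most (RPS21) with RPL23 (0.11), RPL11 (0.1) and RPL23A (0.1) next. None was lower. Medians of these lists lay between 0.02 and 0.06.

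The limb difference was then set against that of scale and muff pigeons at the same stage, which asks whether feather-footed grouse embryos distinguish leg from wing in the same way. Scale pigeons had 1394 features called between the limbs (10.5% of those tested) and muff pigeons 1035 (7.86%). Between grouse and scale 791 features were called with the same direction, 55.4% of the grouse and 56.7% of the scale calls, and none in opposite directions. Between grouse and muff 646 were shared, 45.3% of the grouse and 62.4% of the muff calls, and 2 were opposite. One of them was a feature named cytochrome P450 26B1 (−0.19 in grouse, 0.17 in muff), named after its values were seen.

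No feature passed the test of a difference between the grouse and the scale limb effect, 0 of 13768 (0%), in edgeR or in DESeq2. In edgeR 880 had an unadjusted p below 0.05. For PITX1 the difference of log2 fold changes, grouse minus scale, was −0.07 (SE 0.17, adjusted p 0.963), for TBX5 −0.09 (SE 0.25, adjusted p 0.97), for ISL1 0.06 (SE 0.2) and for TBX4 −0.58 (SE 0.23, adjusted p 0.696). Hindlimb PITX1 was 232 ± 17 CPM in grouse and 293 ± 25.3 in scale, and forelimb PITX1 4.29 ± 0.46 and 5.12 ± 1.48, on the scale of the joint fit.

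Between grouse and muff 12 of 13768 features (0.0872%) differed in the limb effect, 8 with a higher and 4 with a lower value in grouse. TBX5 led them: its hindlimb level was 1.12 ± 0.61 CPM in grouse and 26 ± 1.89 in muff, with forelimbs at 284 ± 45.1 and 299 ± 38.6. The difference of log2 fold changes was −4.44 (SE 0.13, adjusted p 1.54e-15). PITX1 was the second limb-type gene, with 232 ± 17 CPM in grouse and 203 ± 21.5 in muff hindlimbs and 4.29 ± 0.46 and 8.46 ± 1.41 in forelimbs (1.17, SE 0.15, adjusted p 0.00117). Of the others, the cell adhesion gene AMIGO2 differed by 0.71, the phosphodiesterase PDE5A by −0.56 and the adhesion gene ALCAM by 0.36, and RPS21 and RPLP0 by 0.26 and 0.22. Over all features 792 were lower and 635 higher of 13205 in grouse hindlimb. In scale 710 were lower and 684 higher of 13338, and in muff 602 and 433 of 13173. Ribosomal protein genes had no called member lower in grouse hindlimb, and 8 of 63 were lower in scale and 16 in muff, a contrast of counts that was not tested. Of the 30 muscle genes 21 were lower and 3 higher in grouse hindlimb, 12 and 5 in scale and 12 and 1 in muff. None of them was called in the test of the difference against scale or against muff. Without the block 3 features were called.

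Across stages, the grouse limbs had 179 features called at HH21 (1.38%) and 157 at HH29 (1.16%), against 1427 at HH25. These counts come from separate fits and depend on the spread and pairing in each. Limbs of the same number correlated at 0.43 to 0.61 at HH21 and at 0.2 to 0.42 at HH29. Of the HH25 calls tested there, 1046 of 1334 had the same sign at HH21 and 1128 of 1413 at HH29. What sets the sizes of the counts was not tested. The same direction was called for 129 features at HH21 and HH25, 72.1% of the HH21 and 9.04% of the HH25 calls, and for 125 at HH25 and HH29, 79.6% of the HH29 and 8.76% of the HH25 calls. The limb effect changed between HH21 and HH25 for 67 of 13968 features (0.48%), 44 with a higher and 23 with a lower value at HH25. Limb-type genes were among them, and their level in the other limb was higher at HH25. On the joint scale, hindlimb TBX5 was 0.0966 ± 0.0293 CPM at HH21 and 1.11 ± 0.607 at HH25, forelimb TBX4 0.598 ± 0.18 and 3.36 ± 1.19, and forelimb ISL1 0.273 ± 0.155 and 1.95 ± 0.938. These low levels rested on few counts over 4 libraries: 5, 31 and 14 at HH21 and 58, 171 and 100 at HH25. HH25 minus HH21, the log2 fold change of TBX5 differed by 2.67 (SE 0.42, adjusted p 0.00986). That of TBX4 differed by −2.32 (SE 0.34, adjusted p 0.00725), that of ISL1 by −2.94 (SE 0.39, adjusted p 0.00462) and that of PITX1 by −1.1 (adjusted p 0.0103).

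SHH, HOXD9 and HOXD10 also changed in limb effect from HH21 to HH25. SHH was 10.6 ± 3.98 CPM in HH21 forelimb and 13.6 ± 1.89 in HH21 hindlimb, against 3.62 ± 2.07 and 1.3 ± 0.69 at HH25, a difference of −1.88 (SE 0.28, adjusted p 0.0103). The HOXD9 and HOXD10 limb differences were larger at HH25, by −1.03 and −0.89, and the other 5 tested HOXD genes were not called, HOXD11 with −0.42 (adjusted p 0.141) and HOXD8 with −0.75 (adjusted p 0.203) among them. ALDH1A2, the enzyme that makes retinoic acid, was higher in hindlimb at HH21 (23 ± 7.65 and 66.3 ± 4.65 CPM) and level at HH25 (93.4 ± 17.7 and 92 ± 17), a difference of −1.59. The smooth muscle actin ACTA2 was higher in hindlimb at HH21 (4.04 ± 1.93 and 23.7 ± 20.7 CPM) and lower at HH25 (40.5 ± 17.2 and 27.1 ± 9.56 CPM), a difference of −2.93. The membrane protease CORIN had 1.11 ± 0.626 CPM in hindlimb at HH21 and 7.25 ± 1.89 CPM at HH25 (2.3). A feature named protein-arginine deiminase type-2 (−3.15), CSMD3 (2.5) and DHX32 (−2.04) were among the other large changes, all in scarce features. The deiminase feature did not pass the low-count filter of the HH25 or HH21 limb fit, and CSMD3 did not at HH21. In the HH21 fit DHX32 had 0.704 ± 0.342 CPM in forelimb and 2.91 ± 2.1 in hindlimb. Features called in opposite directions in the separate HH21 and HH25 fits numbered 8, among them SYT9, CHODL, SMYD1, MXRA5 and COL8A2, chosen after their values were seen. Of those named, COL8A2 was not called in the test of the change in limb effect.

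Between HH25 and HH29 the limb effect changed for 13 features (0.0931%), 5 with a higher and 8 with a lower value at HH25. The contractile genes TNNC1, TNNC2, TNNI2 and ACTC1 were lower in hindlimb at HH25 and not called between the limbs at HH29. TNNC1 was 16.7 ± 9.62 and 6.9 ± 6.28 CPM at HH25 and 74.9 ± 18.7 and 65.5 ± 11.7 at HH29, a difference of −1.24 (SE 0.19, adjusted p 0.0265), and the other 3 differed by −0.88, −0.83 and −0.82. TBX5 changed again (−1.39, SE 0.2, adjusted p 0.0265), with hindlimb at 3.46 ± 0.571 CPM at HH29. ALDH1A3, another retinaldehyde dehydrogenase, was at 10.5 ± 4.81 and 11.5 ± 6.55 CPM at HH25 and 132 ± 75.6 and 332 ± 137 at HH29 (−1.3). The count was 0 without the block and in 6 of the 8 fits that left out 1 pair, those without HH25 pairs 1, 2 or 4 and without HH29 pairs 1, 3 or 4.

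**Figure D5:**
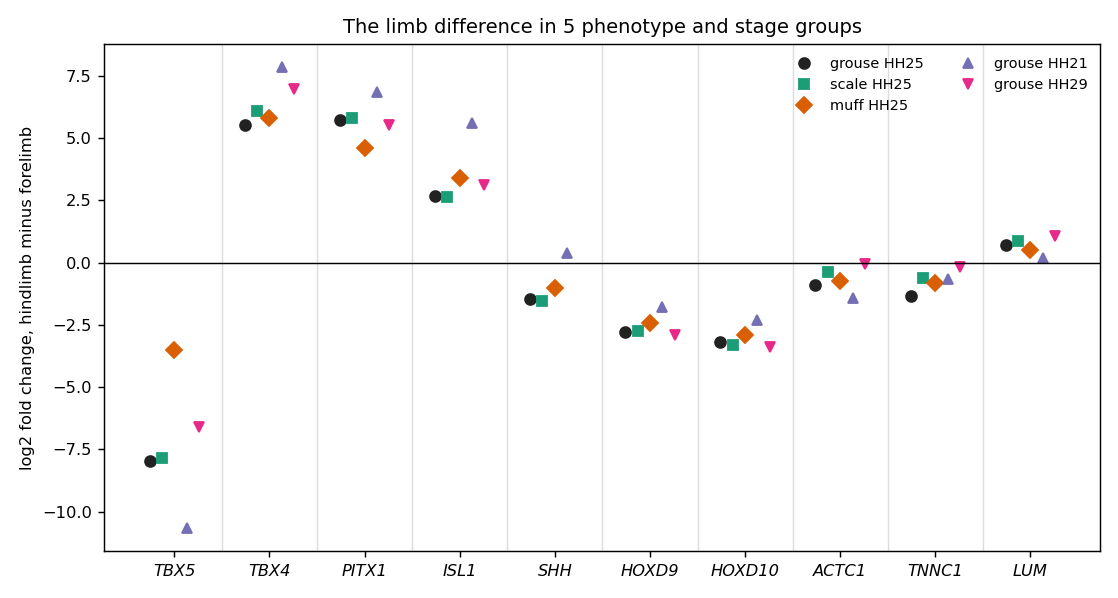
Log2 fold change of hindlimb minus forelimb (y axis) of 10 genes in grouse HH25 (black circles) and in scale HH25, muff HH25, grouse HH21 and grouse HH29; SHH has no HH29 point because it was not tested there. Grouse and scale at HH25 lie close together for TBX5, PITX1 and ISL1, the muff TBX5 point lies at −3.51 against −7.95 in grouse, and SHH is above 0 at HH21 alone.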

How the data were processed

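RNA of whole limb buds was sequenced as stranded, poly(A)-selected paired-end libraries, per the labels' protocols. The authors deposited 1 file of raw counts per feature for each library. The submitters' processing notes name FastQC, STAR, featureCounts and DESeq2. Not given in the sources used here are their versions, the genome build and the strand setting of the counting. Gene names came from the authors' deposited comparison table of scale limbs.

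Counts were tested with edgeR 4.0.16 in R 4.3.3 (filterByExpr, TMM scaling, quasi-likelihood fit, Benjamini-Hochberg adjusted p below 0.05), with the replicate number as a block. Differences between limb effects were tested in joint fits, with pairs nested in group and 1 limb effect per group. Each joint fit held all 3 pigeon phenotypes at HH25 or all 3 grouse stages. The group outside a comparison thus entered its estimate of the spread. CPM is TMM-scaled within each fit. The labels say that both limbs were dissected as pairs, and limbs with the same number deviated together. Their r was 0.59, 0.53, 0.67 and 0.63 in grouse HH25, against at most 0.29 between different numbers. Once the split of replicates 1 and 2 from 3 and 4 was taken out, r was 0.32 in the first set and 0.58 in the second. With 2 pairs in a set, both pairs must have the same r, so these are 2 values and not 4. SE is that of the log2 fold change.

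Named genes were the limb-type and HOX genes, the 15 largest changes each way with at least 1 CPM in the higher group and 1 direction in all pairs, up to 4 called members of each list with a few well-known members that were not called, and up to 10 interaction features. The members and the 26 lists were chosen with earlier results of these data known. Lists can share members: ERG and TNC, for example, each count in more than 1 list. A listed gene with several features was counted by the feature with the most counts over the grouse HH25 libraries. Alternatives were no block, a term for replicates 1 and 2 against 3 and 4, either of those alone, each replicate left out, RLE scaling, no filter, counts summed by name, and DESeq2 1.42.0. DESeq2 without independent filtering was added after seeing the data. Intervals on ratios of counts are 95% and, like the floor of 3 counts, cover counting error only. The fits were tested on simulated data. A few features that the rule names are not reported here.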

Additional observations from a re-analysis of the deposited data

Results flagged for a closer look

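Within groups of 4 libraries, 8 of 98 groups over 49 named features (8.16%) held a library that stood apart by Dixon's 95% criterion, which chance flags in about 1 of 20 groups. These were TBX5 in hindlimb 3 (2.04 CPM, high), HOXA9 in hindlimb 2 (48.7 CPM, low), HOXC5 in hindlimb 2 (1.37 CPM, high), HOXC9 in forelimb 2 (10.5 CPM, low), HOXC11 in forelimb 2 (0.0795 CPM, its 1 forelimb count), NDP in both limbs of pair 2 (1.51 and 5.64 CPM, high) and DIO3 in forelimb 2 (42.7 CPM, high). All but 1 of the 8 were in pair 2.

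The limb effect differed between groups, by the interaction test, for the features that follow (log2 differences). Against muff they were TBX5 (−4.44, and −4.79 for its smaller feature XM_005500158.2), phospholipid scramblase family member 5 (−3.55), PITX1 (1.17), AMIGO2 (0.71), PDE5A (−0.56), LOC106146080 (0.41), ALCAM (0.36), MOB-like protein phocein (0.29) and RPS21 (0.26). The scramblase feature was at 0.775 ± 0.216 CPM in grouse forelimb and 0.0725 ± 0.145 in grouse hindlimb, and at 1.98 ± 1.11 and 2.57 ± 1.96 in muff.

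Between HH25 and HH21 they included protein-arginine deiminase type-2 (−3.15), ISL1 (−2.94), ACTA2 (−2.93), TBX5 (2.67), CSMD3 (2.5), TBX4 (−2.32), the CORIN features (2.3 and 2) and DHX32 (−2.04). Between HH25 and HH29 they were pulmonary surfactant-associated protein A (2.37), FGL2 (2.31), NXPH2 (1.66), CORIN (−1.43), TBX5 (−1.39), ALDH1A3 (−1.3), TNNC1 (−1.24), VWC2 (−1.11), TNNC2 (−0.88) and TNNI2 (−0.83). CORIN was lower in hindlimb at HH25 (10.8 ± 0.928 and 7.25 ± 1.89 CPM) and higher at HH29 (11 ± 1.8 and 19.6 ± 3.42 CPM).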

How the results depend on the processing

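Beside the 1427 limb calls (635 higher, 792 lower), 176 (80 and 96) were made without the replicate block, 562 (226 and 336) by DESeq2 with or without independent filtering, 371 (154 and 217) with a term for replicates 1 and 2 against 3 and 4 in place of the block, 837 (329 and 508) with replicates 1 and 2 alone and 824 (354 and 470) with 3 and 4 alone. Leaving out 1 pair gave 878 to 1204 calls (370 to 517 higher, 508 to 687 lower). Of the calls of these 2 replicate sets 456 were shared with the same sign, 54.5% and 55.3% of each, and 11 were opposite. Among 119 named features 66 lost their call without the block and 46 in DESeq2, none with RLE scaling or without the filter. Values not called and near 0 changed sign for HOXA9 (−0.06, replicates 3 and 4), HOXC13 (0.11) and HOXD13 (0.04, both replicates 1 and 2).

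Against scale, 5 features instead of 0 were called without the filter, and 0 in every fit without 1 pair. Against muff the 12 became 3 without the block, 43 in DESeq2, which then gave an adjusted p for 956 of 13768 features, 53 without the filter, and 4 to 12 without 1 pair. DESeq2 without independent filtering called 17. The 67 of HH25 minus HH21 became 11 without the block, 111 in DESeq2 (105 without independent filtering) and 31 to 73 without 1 pair. The 13 of HH25 minus HH29 became 0, 44 in DESeq2 with or without independent filtering, and 0 to 41 without 1 pair: 19 without HH25 pair 3 and 41 without HH29 pair 2. The causes were not tested. Simulated data had a coefficient of variation beyond counting error of 0.1 for every feature, where the grouse HH25 fit had a common value of 0.038. In them the limb test recovered 65.2% of changes of 0.5 on the log2 scale and 90.9% of those of 1. The grouse minus scale test recovered 21.9% and 90.9%. These rates hold for the simulated spread and are not the power of the tests on the real data.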
